A study of Mus musculus with 8 samples.

Results

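Glucose metabolism was followed through 45 genes in CCR6+ group 3 innate lymphoid cells (ILC3s) with and without the transcription factor Zbtb46. The members were chosen by name, out of 27179 rows of the count table, as the glucose and lactate transporters, the enzymes of glycolysis, of the pentose phosphate route and of the TCA cycle, pyruvate dehydrogenase with its kinases, and Hif1a with its hydroxylases. All 45 had a row, and 38 passed the expression filter and were tested. ILC3s are tissue-resident lymphocytes of the gut wall that secrete interleukin 22. The cells were sorted by surface markers from the large intestine of C57BL/6 mice at steady state, with CD127, CD90 and CCR6 required and with CD3, CD5, NK1.1, the γδ T cell receptor, B220, CD11b and CD11c excluded. The 4 control mice (replicates 1 to 4, labelled WT) were Zbtb46f/f and carried no Cre. The 4 Zbtb46 KO mice (replicates 5 to 8) were Zbtb46f/f mice that also carried a Cre recombinase, which removes the floxed part of Zbtb46. Each library came from 1 mouse. Age and sex are not given in the labels. The comparison asks which transcripts of these cells differ when Zbtb46 is lost.

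Glucose enters a cell through facilitative transporters and is trapped by hexokinase. Glycolysis then splits it into pyruvate, which lactate dehydrogenase turns into lactate or pyruvate dehydrogenase passes to the mitochondrial TCA cycle, while the pentose phosphate route branches off early and yields NADPH and ribose. HIF-1α, kept low by oxygen-dependent prolyl hydroxylases, is a known inducer of glycolytic genes, and activated lymphocytes, ILC3s among them, are known to raise glycolysis.

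Library totals ran from 25328231 to 33760743 counts. A level is given in CPM, a gene's counts per 1000000 counts of the library in tested genes, scaled between libraries by TMM. Group values are means ± SD over n = 4 libraries, and fitted differences are log2 folds of Zbtb46 KO over WT. Zbtb46 itself had 8.02, 48.8, 88.9 and 26.6 CPM in the WT libraries and 4.82, 0.532, 3.19 and 0.125 CPM in the KO libraries. The groups did not overlap (exact two-sided permutation p = 0.0286, the smallest that 4 against 4 can give), while its adjusted p in edgeR's quasi-likelihood test over all genes was 0.885. Which part is deleted is not stated in the labels, and 5 other RefSeq genes overlap its span. All 10 ILC3 markers followed were detected, and they summed to 24139 to 35169 CPM in WT and 22524 to 27366 CPM in KO libraries, and the 8 T cell markers to 116 to 309 CPM over all libraries. Cd3e had at most 0.165 CPM, while Cd3g, Cd4 and Trbc2 reached 60.9, 106 and 106 CPM in their highest libraries. Markers of other cell types stood out in single libraries, with epithelial markers at 1350 CPM in WT replicate 2 (at most 20.2 CPM elsewhere). Stromal and endothelial markers were at 786 CPM in WT replicate 1 and 417 CPM in KO replicate 7 (at most 115 CPM elsewhere). Myeloid markers were at 335 and 731 CPM in KO replicates 5 and 7 (at most 43.9 CPM elsewhere). Those myeloid sums were mostly S100a8 (238 and 316 CPM) and S100a9 (94.1 and 359 CPM), while Lyz2 had 0.114 and 35.4 CPM there. NK and ILC1 markers summed to 37.5 to 248 CPM in WT and 189 to 598 CPM in KO libraries. They were highest in KO replicate 5, where Ncr1 alone had 447 CPM. Gzma, Klrb1c, Gzmb and Tbx21 were at 11.3 to 59.4 CPM in that library. Eomes and Nkg7 had 0.0571 CPM each there, and Prf1 had 0 CPM. Which cells these transcripts came from was not tested.

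No gene of glucose metabolism differed past the threshold. With edgeR's quasi-likelihood test and Benjamini-Hochberg adjustment over all 8878 genes tested, none of the 38 members reached an adjusted p under 0.05 (0 higher, 0 lower), where the background of all genes was 0% in each direction. At an unadjusted p under 0.05 there was 1 higher member, Pkm, where the background was 2.10%, and 1 lower member, Hk2, where it was 2.00%. Each of these is 2.63% of the members tested, close to the background (4.10% of all genes for both directions together). DESeq2, which called 2.24% of the 16714 genes it gave a p, called 0 of 42 members, with 3 at an unadjusted p under 0.05 against 7.46% of all genes. Limma-voom called 0 of 38 members against 0% of all genes, with 2 at an unadjusted p under 0.05 against 8.73%. In 0 of the 38 members did the 4 libraries of one group lie wholly above those of the other, against a background of 2.26% of all genes with KO above WT, 2.10% with KO below, and 4.36% in all. Of the 38, 24 had higher and 14 lower fitted values in KO cells (63.2% higher, against 50.9% of all genes), and the median log2 fold was 0.16 against 0.02 over all genes. Spread between libraries was wide and close to that of other genes, with a median coefficient of variation within groups of 71.6% for the members and 71.8% for all genes, and of 31.8% and 32.7% where the mean level was at least 100 CPM. In a bulk sample of sorted cells, fewer cells of a type and less RNA per cell cannot be told apart.

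**Figure D1:**
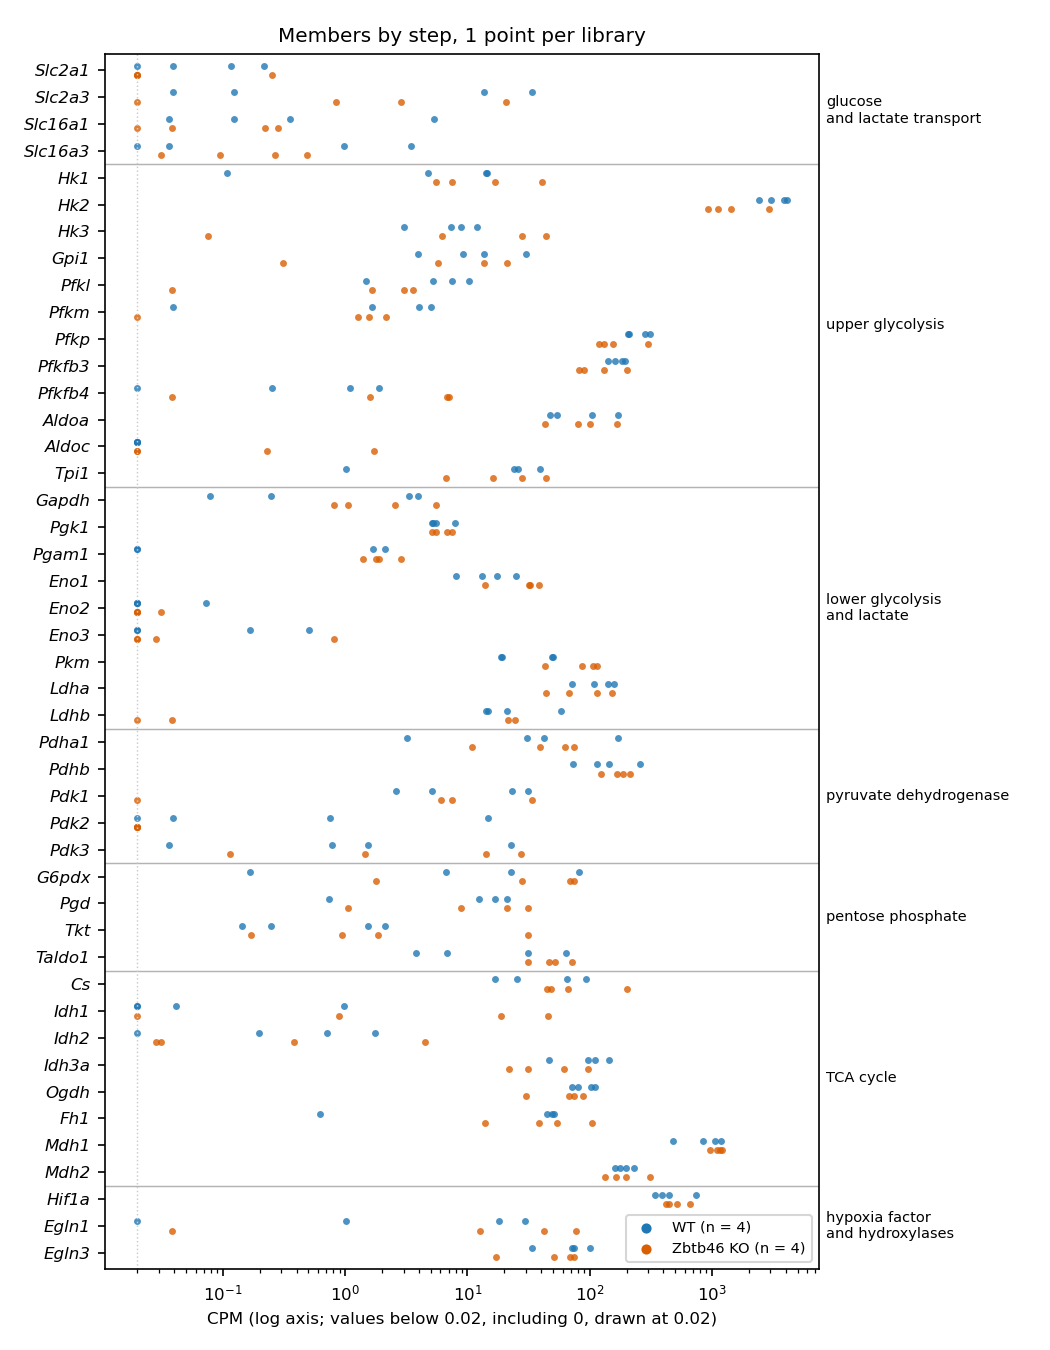
Level of each of the 45 members in every library, in CPM on a log axis, grouped by step of the pathway, with WT in blue and Zbtb46 KO in orange. Hk2 lies at the right, at 932 to 4067 CPM, with 3 KO libraries below all WT ones and the fourth among them, and in no tested member are the colours fully apart.

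**Figure D2:**
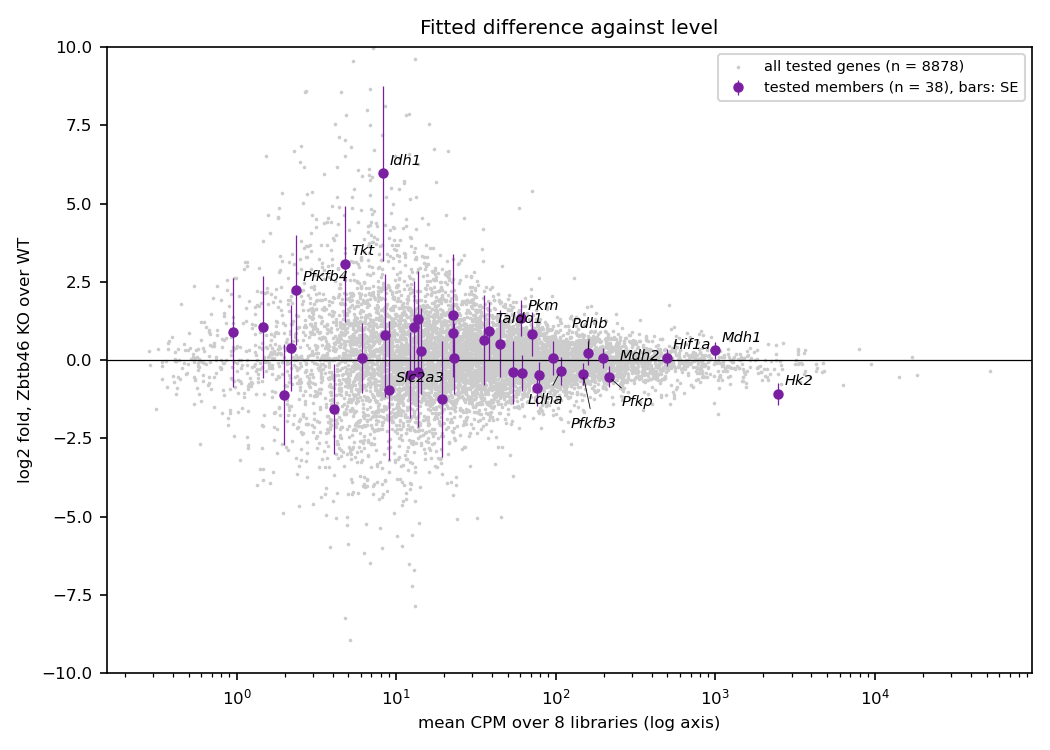
Fitted log2 fold of Zbtb46 KO over WT against mean CPM (log axis) for 8878 tested genes in grey and 38 tested members in purple, with bars for the standard error. Members spread around 0 as the other genes do, widely at low levels and narrowly at high ones, and 10 genes lie beyond the vertical axis.

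Transport into and out of the cell was the least detected step by its 4 members. This does not hold for all transporter genes. Slc2a6, from the lists of further genes, had 42.8 to 180 CPM over all libraries (log2 fold 0.23, standard error 0.43). Slc2a8 and Slc2a9, from the same lists, reached 7.78 and 1.09 CPM in their highest libraries. Slc2a3, encoding the glucose transporter GLUT3 (Entrez ID 20527, chr6:122727809-122802363, coordinates from RefSeq on GRCm38.p6 here and below), was the best detected of the 4 transporter members. It had 33.9, 0.124, 13.7 and 0.0393 CPM in WT and 20.8, 0, 2.85 and 0.845 CPM in KO libraries. Libraries with and without clear signal occurred in both groups, and the groups overlapped. Its log2 fold was -0.97 (standard error 2.22, edgeR adjusted p of 1.00), and it turned to 0.40 without WT replicate 1. Slc2a1, encoding GLUT1, the main inducible glucose transporter of activated T cells, had at most 0.250 CPM, or 8 counts, in any library. The lactate transporter genes Slc16a1 and Slc16a3 (MCT1 and MCT4) reached 5.32 and 3.43 CPM in their highest libraries, WT replicates 1 and 2, and stayed below 1 CPM in all others. These 3 genes did not pass the filter and were not tested. A count of 0 in a library allows 0.0889 to 0.118 CPM (3 counts of the total), a limit that covers counting error alone, since PCR copies of a molecule are counted separately here.

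Hk2, encoding hexokinase 2, which phosphorylates glucose and binds the outer mitochondrial membrane, dominated the first step of glycolysis. It had 3848, 3051, 2438 and 4067 CPM in WT and 932, 2915, 1120 and 1424 CPM in KO libraries. KO replicates 5, 7 and 8 lay below all 4 WT libraries, and KO replicate 6 lay between WT replicates 2 and 3. The means were 3351 ± 749 CPM in WT and 1598 ± 901 CPM in KO cells, a log2 fold of -1.07 (standard error 0.35). Its p was 0.0124 before adjustment and 0.885 after it in edgeR, and the exact two-sided permutation p of the single gene was 0.0571, so the difference did not pass over all genes. Without KO replicate 6, the only KO library within the WT range of Hk2, the groups could not overlap. In that setting 3.80% of all genes had non-overlapping groups, lower in KO cells. The log2 fold of Hk2 was then -1.53 (edgeR adjusted p of 0.174), but the library left out was its highest KO one. Without KO replicates 5 and 7, the libraries with the highest myeloid marker sums (mostly S100a8 and S100a9), the log2 fold was -0.63 (edgeR unadjusted p of 0.108). The 8 myeloid markers, all in the table, summed to 0.993 to 43.9 CPM in WT and 5.26 to 731 CPM in KO libraries, and their part in the Hk2 difference was not tested. By library, in the order used for Hk2 above, the sums were 9.43, 0.993, 21.9 and 43.9 CPM in WT. In the KO libraries they were 335, 11.2, 731 and 5.26 CPM.

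**Figure D3:**
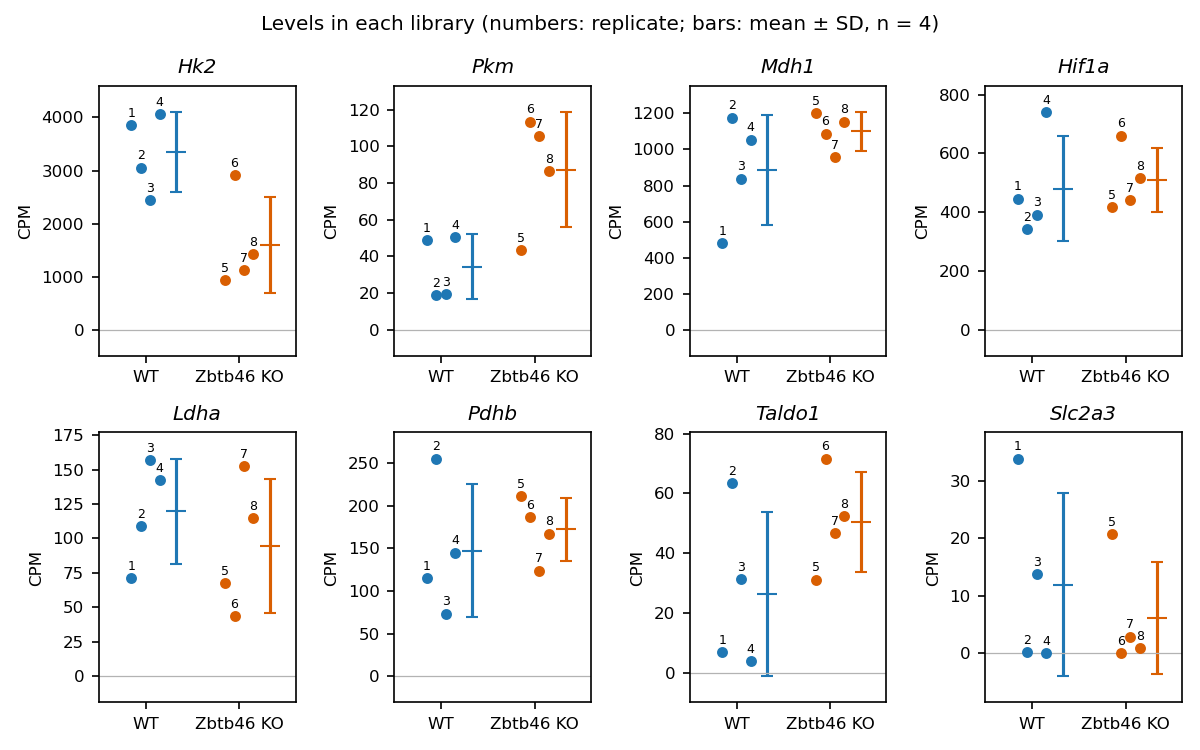
CPM of Hk2, Pkm and the best detected member of each other step in each library, with replicate numbers beside the points and the mean ± SD over n = 4 to their right; each panel has its own linear axis. In Hk2 replicates 5, 7 and 8 lie below the WT points, and in Pkm replicates 6, 7 and 8 lie above them.

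The gene lies at chr6:82725025-82774454 (Entrez ID 15277), and no other RefSeq gene overlaps it. Of its transcript, 0% of 50-base windows occur letter for letter in another annotated gene, so its counts are not shared with a copy at that length. Among the 3 hexokinase genes Hk2 held 99.3 ± 0.119% of the family's CPM per kilobase of exon in WT and 95.8 ± 2.70% in KO libraries. Its lowest share was 93.9%, in KO replicate 8. Hk1, the housekeeping hexokinase, had 8.40 ± 7.15 CPM in WT and 17.6 ± 16 in KO cells. Hk3, known mainly from myeloid cells, had 7.77 ± 3.70 CPM in WT, and in the KO libraries it had 28.2, 0.0759, 6.16 and 43.5 CPM. Hk3 was highest in KO replicate 8, which had a low myeloid marker sum. It was second highest in KO replicate 5, which had a high one, mostly from S100a8 and S100a9.

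**Figure D4:**
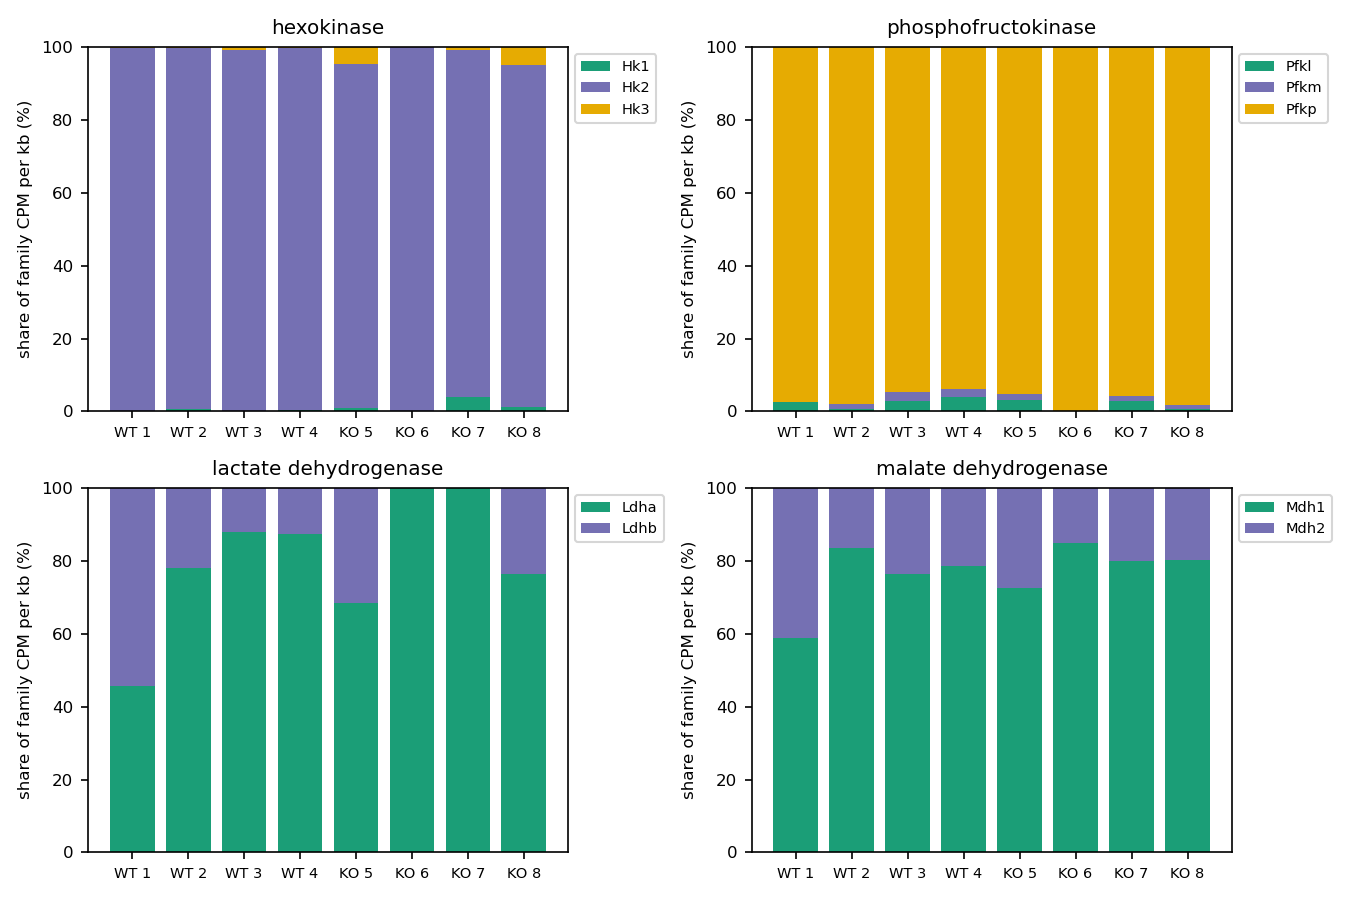
Share of each isoenzyme in the summed CPM per kilobase of its family (percent, stacked to 100) in each of the 8 libraries for hexokinase, phosphofructokinase, lactate dehydrogenase and malate dehydrogenase. Hk2 and Pfkp hold at least 93.9% and 93.7% of their families in every library, while the Ldha share runs from 45.6% to 100%.

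Promoters are shown for Hk2 and Pkm, the members with an unadjusted p under 0.05, and for Ldha, the textbook HIF-1 target among the members. The windows printed were picked because they hold the core letters of the hypoxia response element. Whether HIF-1 acts on these genes here was not tested. Each window, from RefSeq on GRCm38.p6, runs from 250 bases before to 50 bases after a transcript start, on the gene's strand. Capitals mark ACGTG or its reverse complement CACGT.
Hk2, chr6:82774405-82774704, minus strand: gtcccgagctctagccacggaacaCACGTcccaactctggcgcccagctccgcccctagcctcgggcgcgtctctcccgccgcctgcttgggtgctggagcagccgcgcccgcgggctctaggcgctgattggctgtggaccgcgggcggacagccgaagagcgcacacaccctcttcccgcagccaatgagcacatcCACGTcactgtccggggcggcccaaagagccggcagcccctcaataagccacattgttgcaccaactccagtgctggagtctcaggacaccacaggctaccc
Pkm, chr9:59656977-59657276, plus strand: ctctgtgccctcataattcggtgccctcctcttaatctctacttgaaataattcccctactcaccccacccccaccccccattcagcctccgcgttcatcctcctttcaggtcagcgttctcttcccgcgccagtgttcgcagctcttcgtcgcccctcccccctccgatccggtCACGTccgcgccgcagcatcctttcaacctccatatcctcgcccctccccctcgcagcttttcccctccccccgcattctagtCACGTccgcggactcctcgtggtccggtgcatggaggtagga
Ldha, chr7:46845554-46845853, plus strand: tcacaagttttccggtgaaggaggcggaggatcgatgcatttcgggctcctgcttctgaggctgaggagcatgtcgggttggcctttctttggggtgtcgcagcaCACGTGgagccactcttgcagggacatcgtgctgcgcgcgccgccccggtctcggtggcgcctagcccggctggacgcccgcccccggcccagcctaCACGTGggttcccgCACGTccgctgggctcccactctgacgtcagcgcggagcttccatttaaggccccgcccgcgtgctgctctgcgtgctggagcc
The Hk2 and Pkm windows hold 2 matches each, and Pkm has a second window without any. The Ldha window holds 5, because each of its 2 CACGTG sequences (the E-box letters) reads as ACGTG on both strands, and a second Ldha window holds none. Windows were found for 43 of the 45 members, all but Slc2a3 and Idh3a. ACGTG on either strand occurred in at least 1 window of 24 of those 43 genes (55.8%), against 21.8% of 27025 genes. By window, it occurred in 32 of the members' 64, against 19.6% of 32851. The members' windows hold more CG dinucleotides (median 20.5 against 7), which ACGTG contains. Among windows with at least 10 CG, a limit chosen after the values were seen, it occurred in 52.8% of 53 member windows and 28.0% of 14281 in all. CACGTG occurred in 16.3% of the members and 8.09% of all genes, and among windows with at least 10 CG in 15.1% and 10.9%. Windows of the same gene can overlap, as those of Ogdh and Aldoa do. Shares by window therefore count some sites repeatedly, while shares by gene count each gene once. A match describes letters, not a bound site.

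Of the further genes of upper glycolysis none passed the test. Pfkp, the platelet-type phosphofructokinase and the committed step of glycolysis, had 313, 211, 207 and 283 CPM in WT and 130, 154, 119 and 300 CPM in KO libraries. KO replicates 5, 6 and 7 were below all WT libraries and KO replicate 8 was among the highest (log2 fold -0.53, standard error 0.34, edgeR adjusted p of 1.00). Pfkp held at least 93.7% of phosphofructokinase CPM per kilobase in every library, and Pfkl and Pfkm had at most 10.2 and 5.03 CPM. Pitrm1 overlaps Pfkp in the genome, and 17.1% of the 50-base windows of the Pfkp transcript also occur in Pitrm1. Pfkfb3, whose product makes the activator fructose 2,6-bisphosphate, had 170 ± 23.0 CPM in WT and 126 ± 55.7 in KO cells. Its relative Pfkfb4 stayed at or below 7.10 CPM. Among KO libraries, replicate 6 was highest in Pfkfb3, at 203 CPM, as it was in Hk2. Without it these 2 of 39 members tested had non-overlapping groups, lower in KO cells, as did 3.80% of all genes. Aldoa, the main aldolase of lymphocytes, had 93.7 ± 56.9 CPM in WT and 98.1 ± 52.3 in KO cells. Triosephosphate isomerase (Tpi1) had 22.7 ± 16 and 23.7 ± 16 CPM, and glucose phosphate isomerase (Gpi1) 14.2 ± 11.3 and 10.2 ± 9.05 CPM. Aldoc, the brain-type aldolase, was under the filter, with 0 counts in 6 libraries and at most 1.72 CPM.

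In lower glycolysis Pkm, encoding the pyruvate kinase that makes pyruvate and ATP (Entrez ID 18746, chr9:59656576-59679372), had the largest fitted difference. It had 48.8, 18.9, 19.3 and 50.4 CPM in WT and 43.3, 114, 106 and 86.4 CPM in KO libraries. KO replicates 6, 7 and 8 lay above all WT libraries, and KO replicate 5 lay among them. The means were 34.4 ± 17.6 and 87.2 ± 31.4 CPM, a log2 fold of 1.34 (standard error 0.57). Its p in edgeR was 0.0392 before and 1.00 after adjustment, and the exact two-sided permutation p was 0.0857. Of the Pkm transcript 34.4% of 50-base windows also occur in other annotated genes, and a lncRNA model overlaps it, so its counts are uncertain. The M1 and M2 splice forms cannot be separated in gene counts.

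Ldha, encoding the lactate dehydrogenase subunit that favours lactate (Entrez ID 16828, chr7:46842274-46855627), was the best detected gene of this step. It had 71.1, 109, 157 and 142 CPM in WT and 67.5, 43.6, 152 and 115 CPM in KO libraries, with wide overlap (log2 fold -0.34, standard error 0.46, edgeR adjusted p of 1.00). Ldhb, the subunit that favours pyruvate, had 58.4, 21.1, 14.7 and 14.2 CPM in WT and 21.5, 0.0380, 0 and 24.2 CPM in KO libraries. It was nearly absent from KO replicates 6 and 7 and present in 5 and 8, so the Ldha share of the pair ranged from 68.4% to 100% within the KO group and from 45.6% to 88.0% in WT.

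The middle enzymes of lower glycolysis had few counts. Gapdh, a standard reference gene in other assays, had 0.0783 to 5.54 CPM, Pgk1 had 5.11 to 7.86 CPM and Pgam1 0 to 2.85 CPM. Eno1, encoding the main enolase, had 16 ± 7.18 CPM in WT and 29.1 ± 10.5 in KO cells. Eno2 and Eno3, the neuronal and muscle enolases, had at most 0.0721 and 0.813 CPM and were not tested. These are genes with many retrocopies. Of the Gapdh transcript 82.5% of 50-base windows occur in at least 1 of 222 other annotated genes, and the share was 72.2% for Eno1, 68.0% for Pgk1 and 41.5% for Pgam1. The labels do not state how reads that fit several places were counted, and its part in these levels was not tested. Of the 222 genes that share windows with Gapdh 11 had a row, with at most 0.469 CPM in sum. Eno1b, which shares windows with Eno1, reached at most 0.418 CPM. Nearly empty rows do not show whether reads that fit several places were left out or were few. The median was 6.09 CPM per kilobase over the 6 members that share at least 30% of windows. It was 16.9 over the 16 members in between and 3.34 over the 23 that share none. These sets hold different genes, so their medians do not show what sharing did to any level. The levels of these 4 genes are uncertain.

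**Figure D5:**
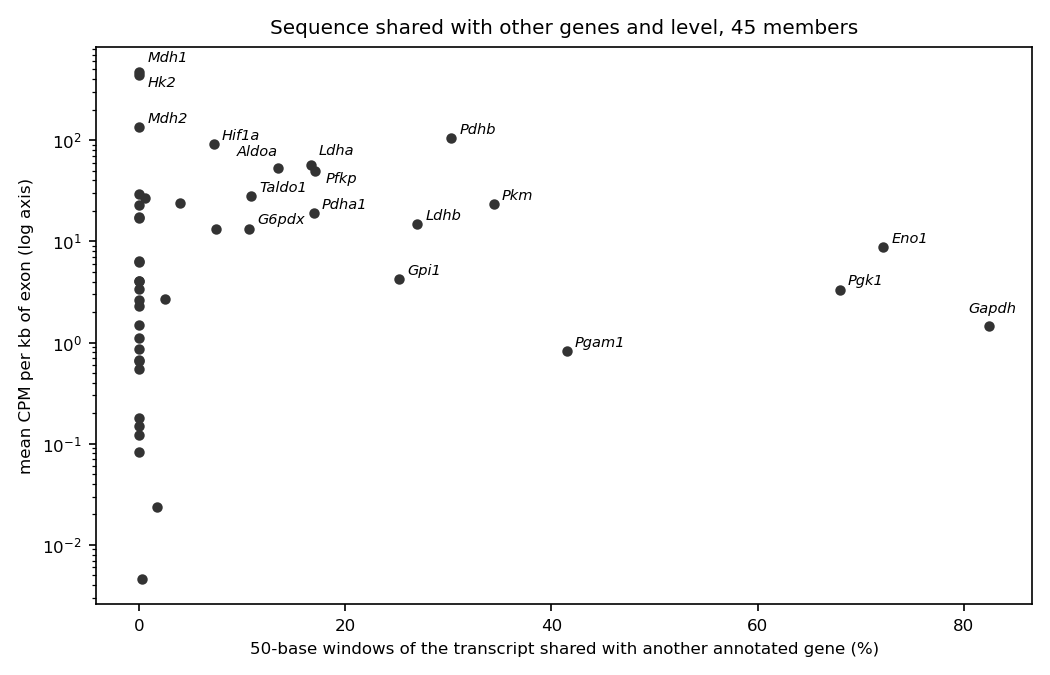
Mean CPM per kilobase of exon (log axis) against the percentage of each transcript's 50-base windows that also occur in another annotated gene, 1 point per member (45). Gapdh, Eno1 and Pgk1 share at least 68.0% of their windows and lie below 10 CPM per kilobase. The 23 members that share 0% run from 0.0819 to 468, with a median of 3.34, and the 16 between 0% and 30% have a median of 16.9.

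Pyruvate dehydrogenase, the gate to the TCA cycle, was followed by its E1 subunits and their inhibitory kinases. Pdhb, the E1 beta subunit (Entrez ID 68263, chr14:8165991-8173303), had 115, 255, 73.5 and 145 CPM in WT and 211, 187, 124 and 167 CPM in KO libraries. All KO values lay inside the WT range (log2 fold 0.23, standard error 0.39, edgeR adjusted p of 1.00). Of the Pdhb transcript 30.3% of 50-base windows also occur in another annotated gene, so its counts are uncertain. Pdha1, the E1 alpha subunit, had 61.5 ± 73.9 CPM in WT, where replicate 1 reached 170 CPM and replicate 2 had 3.23, and 46.9 ± 28.1 in KO cells. The kinase genes Pdk1 and Pdk3 were low and uneven, at 0 to 33.8 and 0.0360 to 27.4 CPM. Pdk2 did not pass the filter. It had 14.8 CPM in WT replicate 2 and 0 counts in all KO libraries. WT replicate 2 also held epithelial transcripts, and a link between them and Pdk2 was not tested.

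All 4 pentose phosphate genes had higher fitted values in KO cells, with log2 folds from 0.28 to 3.08, and all had an edgeR adjusted p of 1.00. Taldo1, encoding transaldolase of the non-oxidative branch (Entrez ID 21351, chr7:141392160-141402976), had 6.85, 63.4, 31.4 and 3.81 CPM in WT and 31.1, 71.7, 46.6 and 52.3 CPM in KO libraries. WT replicates 1 and 4 were low, and replicates 2 and 3 lay within the KO range (log2 fold 0.94, standard error 0.91). G6pdx, the entry enzyme that makes NADPH, ran from 0.165 to 81.1 CPM in WT and from 1.77 to 74.8 CPM in KO libraries; Ikbkg overlaps it in the genome. Pgd had 12.8 ± 8.77 and 15.6 ± 13.4 CPM. The fold of Tkt, encoding transketolase, rested on 1 library, KO replicate 7, with 31.4 CPM against at most 2.12 CPM in the other 7.

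TCA cycle genes included the member with the highest level per kilobase of exon, Mdh1, at 468 CPM per kilobase, followed by Hk2 at 441 and Mdh2 at 135. Mdh1, the cytosolic malate dehydrogenase of the malate-aspartate shuttle (Entrez ID 17449, chr11:21556692-21571934), had 482, 1176, 839 and 1054 CPM in WT and 1203, 1088, 956 and 1154 CPM in KO libraries. WT replicate 1 was lowest, and the other WT libraries overlapped the KO group (log2 fold 0.31, standard error 0.27, edgeR adjusted p of 1.00). Mdh2, the mitochondrial enzyme of the cycle itself, had 191 ± 30.4 and 201 ± 77.3 CPM. Citrate synthase (Cs), which condenses acetyl-CoA with oxaloacetate, had 50.4 ± 35.9 CPM in WT and 90.5 ± 75.5 in KO cells, with 203 CPM in KO replicate 6. Idh3a, of the NAD-linked isocitrate dehydrogenase, had 98.6 ± 40.1 and 52.9 ± 33.9 CPM. Ogdh, the E1 subunit of 2-oxoglutarate dehydrogenase, had 91.1 ± 18.8 and 65.1 ± 24.8 CPM. Fumarase (Fh1) had 36.3 ± 23.9 and 52.5 ± 38.1 CPM. The NADP-linked enzymes were nearly absent in WT cells. Idh1, the cytosolic one, had 0, 0.0414, 0 and 0.983 CPM there and 0.885, 45.6, 18.7 and 0 CPM in KO libraries. The signal lay in KO replicates 6 and 7 alone, the fitted log2 fold of 5.97 had a standard error of 2.80, and the unadjusted p in edgeR was 0.0585. Idh2, the mitochondrial one, stayed at or below 4.51 CPM.

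Hif1a, encoding the oxygen-regulated subunit of HIF-1 (Entrez ID 15251, chr12:73901324-73947554), was well detected in both groups. It had 446, 343, 391 and 741 CPM in WT and 418, 661, 442 and 516 CPM in KO libraries, with overlap (log2 fold 0.08, standard error 0.28, edgeR adjusted p of 1.00). Its sign turned without WT replicate 2 or without KO replicate 6, to -0.05 and -0.065. HIF-1α is controlled mainly at the protein level, which these counts do not measure. Among its prolyl hydroxylases Egln3, itself a known HIF target, had 70.2 ± 27.6 and 53.0 ± 25.9 CPM, and Egln1, the main oxygen sensor, ran from 0 to 29.8 CPM in WT and from 0.0380 to 77.3 CPM in KO libraries.

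Summed over all 45 genes, glucose metabolism took 6372 ± 1087 CPM in WT and 4851 ± 956 CPM in KO cells. Hk2 was 52.3 ± 4.24% of that sum in WT and 31.4 ± 10.8% in KO libraries. Without Hk2 the sums were 3021 ± 426 and 3253 ± 168 CPM, with KO libraries at 3007 to 3384 CPM, inside the WT range of 2619 to 3598 CPM. These sums are descriptions of level and weigh each gene by its counts.

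Other genes of the same routes were read from lists of 102 further genes, of which 101 had a row and 67 were tested. None of the 67 was called in either direction by edgeR, 36 had higher and 31 lower fitted values, and the median log2 fold was 0.04. At an unadjusted p under 0.05 there was 1 gene, Ndrg1, a HIF-1 and stress target, with 527, 390, 335 and 971 CPM in WT and 767, 1600, 1112 and 794 CPM in KO libraries (log2 fold 0.94, standard error 0.37, edgeR adjusted p of 1.00). WT replicate 4 lay above KO replicates 5 and 8. The groups did not overlap in 2 genes, both lower in KO cells, against a background of 2.10% of all genes in that direction. Mpc2, a subunit of the mitochondrial pyruvate carrier, had 274, 290, 304 and 283 CPM in WT and 205, 196, 225 and 231 CPM in KO libraries, a small difference with little spread (log2 fold -0.42, standard error 0.20, edgeR unadjusted p of 0.0637 and adjusted p of 1.00). Bnip3, a HIF target that marks mitochondria for removal, had 26.1, 31.4, 22.3 and 22.2 CPM in WT and 6.62, 0.0380, 5.76 and 13.0 CPM in KO libraries (log2 fold -2.0, standard error 1.39, edgeR adjusted p of 1.00).

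By list, 0 of 12 other glycolysis and transport genes, 0 of 7 pentose phosphate genes, 0 of 7 genes of pyruvate entry, 0 of 19 TCA and anaplerosis genes, 0 of 6 hypoxia factors, 0 of 9 HIF-1 targets and 0 of 7 glucose-sensing and growth regulators passed. Galm, which interconverts glucose anomers, had 39.2 ± 25.2 CPM in WT and 2.60 ± 5.13 in KO cells, with an edgeR unadjusted p of 0.106. Epas1, encoding HIF-2α, had 144 ± 26.9 and 92.9 ± 30.3 CPM, and the mitochondrial glutaminase gene Gls2 131 ± 19.1 and 192 ± 66.2 CPM. Prps2, of ribose phosphate activation, had 46.0 ± 31.1 and 22.4 ± 24.5 CPM, and Mlxip, a glucose-responsive transcription factor, 94.8 ± 87.1 and 130 ± 34.1 CPM. Vegfa, a classical HIF-1 target, had 1176 ± 282 and 1250 ± 294 CPM.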

How the data were processed

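Libraries were made from sorted ILC3s with the SMARTer Ultra Low Input V4 kit, per the labels' protocols. CASAVA 1.8.2, STAR 2.3.0 and the build mm10 are listed in the submitters' processing notes. For the counting tool, strand and multi-mapped reads, settings are not given in these sources. The authors deposited whole-number read counts per Entrez gene without normalization, 1 column per mouse.

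Symbols came from RefSeq on GRCm38.p6 (25275 of 27179 rows), and exon lengths and transcript windows of 50 bases from GENCODE M21. Genes were filtered with filterByExpr and libraries scaled by TMM, and the groups were compared by the quasi-likelihood test of edgeR 4.0.16 under R 4.3.3, with Benjamini-Hochberg adjustment over all 8878 tested genes and a threshold of 0.05. Standard errors were derived from F. Exact permutation tests used log2(CPM + 1). The steps were tested on simulated counts. Alternatives were other scaling, filters, robust dispersions, DESeq2 1.42.0, limma-voom (limma 3.58.1) and libraries left out. Members and lists were chosen with earlier results of these data known. Per-library values were named for Zbtb46, for members past the threshold, with an unadjusted p under 0.05 or without overlap, and for the highest member of each step; other per-library values were chosen after they were seen. From the further lists, genes with an unadjusted p under 0.05, or else the smallest p, were named. Bnip3, Vegfa, Slc2a6, Slc2a8 and Slc2a9 were chosen after their values were seen. The Cre driver and 1 marker gene are not reported here.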

Additional observations from a re-analysis of the deposited data

Results flagged for a closer look

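In 66 groups of 4 values (named genes, sums by step and marker sums), the highest or lowest library was set against its neighbour, and the gap was divided by the whole range of the group. It exceeded Dixon's critical value in 9 groups, where chance gives about 1 in 20, or 3.3, for normal and independent values. Many values here lie near 0 and the sums include named genes, so 9 against 3.3 does not show an excess. Among the members, KO replicate 5 stood apart in Slc2a3, at 20.8 CPM against 0 to 2.85 in its group, and through it in the summed transporters, at 21.3 CPM against 0.304 to 3.41. WT replicate 4 stood apart in the sum of Hif1a and its hydroxylases, at 812 CPM against 466 to 498. Galm was at 10.3 CPM in KO replicate 8 and at most 0.114 in the other KO libraries. The mast cell marker sum was 3.19 CPM in WT replicate 2 and 66.2 CPM in KO replicate 6, against at most 0.0721 and 0. It came from Cpa3 alone, as Tpsb2, Cma1 and Mcpt4 had 0 counts in every library. Epithelial markers were at 1350 CPM in WT replicate 2. Stromal and endothelial markers were at 786 CPM in WT replicate 1 and 417 CPM in KO replicate 7.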

How the results depend on the processing

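No paired analysis was possible because replicate numbers run from 1 to 8 and are shared by no mice of different groups. Under every alternative run, 0 members were called. Over all genes DESeq2 called 240 higher and 134 lower, edgeR without a filter 1 and 1, and edgeR with 1 library left out 0 higher and 0 to 2 lower, with 2 without KO replicate 6. Zbtb46 passed with DESeq2 alone (log2 fold -4.30). At an unadjusted p under 0.05 the higher members numbered 2 with DESeq2 and without a filter, 0 without WT 1 and KO 6 and without KO 5 and 7, and 0 to 2 with 1 library left out. The lower ones numbered 2 without a filter, 0 without KO 5 and 7, and 1 to 2 with 1 library left out. Over all genes these shares were 4.23% higher with DESeq2, 4.78% higher and 6.00% lower without a filter, and 1.75% to 3.69% higher and 1.64% to 3.06% lower with 1 library left out. Pkm lost its unadjusted p under 0.05 without WT replicate 2 or 3 or KO replicate 6, 7 or 8. Members without overlap numbered 0 to 1 higher and 0 to 2 lower with 1 library left out (3.58% to 4.79% and 3.21% to 3.80% of all genes), 2 lower without WT 1 and KO 6 (6.74% of all genes), and 2 higher and 1 lower without KO 5 and 7 (6.88% and 6.34%). The members' median log2 fold ran from -0.016 (without KO replicate 7) to 0.39 (without WT replicate 4) with 1 library left out, and was -0.18 without KO 5 and 7. Slc2a3 changed sign to 0.94 with limma-voom, 0.40 without WT replicate 1 and 0.79 without WT 1 and KO 6, and with 1 library left out ran from -3.30 (without KO replicate 5) to 0.40. Hif1a changed sign to -0.05 without WT replicate 2, -0.065 without KO replicate 6 and -0.10 without WT 1 and KO 6, and with 1 library left out ran from -0.065 to 0.37 (without WT replicate 4). The cause was not tested. Hk2 stayed lower in KO cells, from -1.53 to -0.63. Leading isoenzyme shares moved by less than their spread under each alternative. DESeq2 moved the median log2 fold of all genes to -0.24, with more low genes tested. Low counts limit many members, and 14 of the 38 tested had 3 counts or fewer in some library.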
